A study of Danio rerio with 2 samples.

Results

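BEST4/otop2 epithelial cells were taken from the single-cell libraries as cells with at least 1 transcript molecule of otop2, at least 1 further gene detected among best4, cftr, tacr2, ca4b and pbx3a, and no molecule of the leukocyte gene ptprc. By this rule 804 of 11490 cells were members, 465 of 5891 in the WT library and 339 of 5599 in the nod2-/- library. The libraries came from dissociated whole intestines of adult, 6-month-old TL zebrafish, sibling WT and nod2-/- fish from a heterozygous in-cross that shared their housing. Each library pooled 5 fish, 2 males and 3 females, so each genotype had 1 library and no replicate. The mutant carried a CRISPR-made frameshift deletion in the first coding exon of nod2, an intracellular sensor of bacterial peptidoglycan, in every cell of the fish. The fish had received no other treatment that the labels name.

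BEST4/OTOP2 cells are a rare kind of absorptive-lineage epithelial cell, described first in the human intestine and lacking in mice. They are named for the chloride and bicarbonate channel bestrophin 4 and the proton channel otopetrin 2, and they often carry CFTR, the cyclic AMP-gated chloride and bicarbonate channel, and carbonic anhydrases, which interconvert carbon dioxide and bicarbonate. In humans they are also known for the guanylate cyclase ligands guanylin and uroguanylin, for metallothioneins and for components of the Notch pathway.

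Each captured transcript carried a unique molecular identifier (UMI), and levels are given in CPM, the counts of a gene per 1000000 UMIs summed over the cells named. All 95% intervals are exact and take in counting error alone, so how much fish of a genotype vary is not in them, and no p-value was computed. The libraries held 34052268 and 22244173 UMIs, with medians of 3400 UMIs per cell in WT and 1940 in nod2-/-. Members had medians of 3736 and 2450 UMIs, other cells 3342 and 1899. The intestinal epithelial genes fabp2, vil1 and cdx1b were detected in both libraries, at 7248, 877 and 205 CPM in WT and 7121, 742 and 138 CPM in nod2-/-. Of the cell barcodes 10 occurred in both libraries, 1 of them in a member. Members held 15 UMIs of nod2 in WT and 11 in nod2-/-, and a UMI count does not show a frameshift, so this is no check of the genotype.

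The genes of the rule differed widely in how many members carried them. These values describe the choice of cells. otop2 (ENSDARG00000006522) gave 3047 UMIs in WT members and 1527 in nod2-/- members, levels of 765 and 722 CPM against 11.8 and 9.04 CPM in all other cells. In single members its level ran from 17.3 to 20721 CPM with a median of 1138 CPM in WT, and from 29.4 to 12898 CPM with a median of 1187 CPM in nod2-/-. ca4b (ENSDARG00000042293), a membrane-bound carbonic anhydrase, was detected in 416 of the WT and 272 of the nod2-/- members. cftr (ENSDARG00000041107) was detected in 387 and 302 members. These were the most widely detected of the further genes in both libraries. The Pbx homeobox gene pbx3a was detected in 259 and 213 members. best4 (ENSDARG00000078455) itself was detected in only 141 and 94 members, at 50.2 and 57.2 CPM. tacr2, a tachykinin receptor, was the least often detected, in 102 and 39 members. Most members therefore entered through ca4b or cftr, and the name BEST4 rests on a gene seen in 30.3% of WT and 27.7% of nod2-/- members.

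Detection of the genes of the rule was set beside their detection in ptprc cells and all other cells, as a description, since the rule fixed that members have more of them. Among the 635 WT and 569 nod2-/- cells with ptprc, whose median depths were 1324 and 1055 UMIs, 17 and 8 carried an otop2 UMI (2.68% and 1.41%). Of these, 13 and 6 also carried a further gene of the rule. Their level of ca2, a gene outside the rule, was 552 and 814 CPM, against 692 and 898 CPM in members. Whether the otop2 UMIs of ptprc cells came from free RNA was not tested. The share of all other cells with otop2 was 3.67% in WT and 2.59% in nod2-/-. When every cell was thinned to 1000 UMIs, otop2 was still found in 66.1% and 60.7% of the members that were deep enough, against 0.90% and 1.13% of other cells. Thinned in the same way, best4 was found in 12.1% and 14.2% of members and in 0.36% and 0.39% of other cells. A best4 UMI helps to admit a cell, so this difference was built into the choice of members and does not check their label. Unthinned, best4 was in 0.774% and 0.684% of other cells and in 3 ptprc cells of each library.

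Membership ranged from 1 to 5 further genes. In WT 60, 118, 169, 88 and 30 members carried 1, 2, 3, 4 and 5 of them, and in nod2-/- 33, 107, 128, 66 and 5 did. A single otop2 UMI was the basis for 77 members in each library, while 114 WT and 31 nod2-/- members had at least 10. At the inner edge of the rule stood 27 WT and 19 nod2-/- members with 1 otop2 UMI and 1 further gene. Their level of ca2, a cytosolic carbonic anhydrase that the rule did not use, was 86.5 and 78.1 CPM, while over all members it was 692 and 898 CPM. Just outside, 182 WT and 128 nod2-/- cells had otop2 and none of the further genes, with ca2 at 14.2 and 9.43 CPM. Another 105 and 92 cells had no otop2 but 2 or more further genes, and their ca2 level was 627 and 659 CPM. The ptprc condition alone left out 13 and 6 cells, with ca2 at 552 and 814 CPM. Depth differed between these sets, with median depths of 9046 and 9024 UMIs at the inner edge and 2425 and 1841.5 UMIs for cells without otop2. At 5000 to 10000 UMIs ca2 was at 693 and 609 CPM in all members and at 34.8 and 25.1 CPM in other cells, so the members at the inner edge lay between these levels.

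Members differed among themselves by depth. The median number of otop2 UMIs per member was 2 at 500 to 1000 UMIs per cell, 8 in WT and 4 in nod2-/- at 2500 to 5000, and 3 in both libraries above 20000. Its level was 2896 CPM in the shallowest and 125 CPM in the deepest WT members, and 3619 and 141 CPM in nod2-/-, but the rule asks for at least 1 otop2 UMI, which by itself sets a higher least level in shallow cells. ca2, which the rule did not use, was also lower in deep members, going from 2863 to 86.0 CPM and from 4392 to 157 CPM. Markers of enterocytes, the lipid-absorbing cells of the gut, rose instead. Summed over 9 enterocyte markers, the level was 11799 CPM in WT members with up to 5000 UMIs and 37015 CPM in deeper ones. In nod2-/- members it was 19773 and 71568 CPM. Other cells had 26372 and 32186 CPM up to 5000 UMIs and 56814 and 77352 CPM above. For markers of lysosome-rich enterocytes, which take up and degrade luminal protein, the level rose from 1790 to 18775 CPM in WT members and from 1572 to 8057 CPM in nod2-/- members. The enterocyte marker level of deep members was nearer to that of other deep cells in nod2-/- than in WT, and their lysosome-rich marker level was above that of other deep cells in WT and below it in nod2-/-. A doublet caller recorded 0 calls in either library, which can also stand for no call made, and so gave no usable rate of doublets. Of the cells above the 95th percentile of its score, 49 of 245 in WT and 31 of 240 in nod2-/- were members. Members made up 7.89% and 6.05% of all cells. Whether the deep members hold RNA of more than 1 cell was not tested. The 265 WT and 217 nod2-/- members with up to 5000 UMIs are given beside all members for some results below, a limit chosen after the data were seen. Outside the passages that name this limit, levels are over all members. In these levels deeper cells weigh more, because UMIs are summed over cells.

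**Figure D1:**
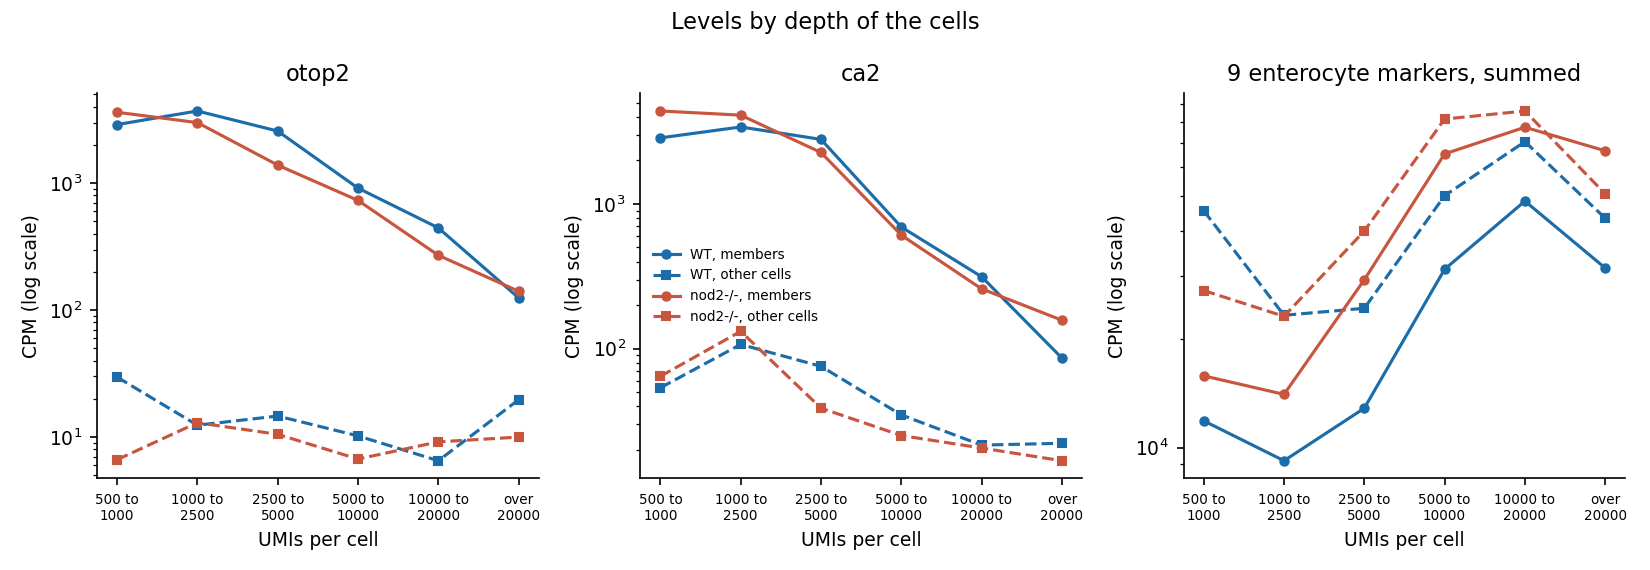
Levels in CPM on a log scale of otop2, of ca2 and of 9 enterocyte markers summed, against the number of UMIs per cell, for members (circles, solid) and all other cells (squares, dashed) of the WT (blue) and nod2-/- (red) libraries. In members otop2 falls from 2896 to 125 CPM in WT and from 3619 to 141 CPM in nod2-/- between the shallowest and the deepest cells, and the enterocyte markers rise above 5000 UMIs.

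Beside the genes of the rule, the genes with the largest ratios between members and other cells included the carbonic anhydrase gene ca2, the receptor gene oprl1, tcnba and cfd. Of 4156 genes tested, 42 (1.01%) were at least 4-fold higher in members than in all other cells in both libraries, after 5 CPM were added to each level, and 161 of 5215 (3.09%) were when both sides were limited to 5000 UMIs. All 42 were among the 161. The members were chosen by their RNA, so these differences describe them and are not a test. The median log2 ratio over all genes tested was 0.08, and 0.06 up to 5000 UMIs.

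Carbonic anhydrase 2 led this list. ca2 (ENSDARG00000014488) stood at 692 CPM in WT members and 38.8 CPM in other WT cells, a log2 ratio of 4.15 (95% interval 4.06 to 4.25), and at 898 and 40.1 CPM in nod2-/-, a log2 ratio of 4.48 (4.37 to 4.61). It was found in 85.8% and 91.4% of members, and after thinning to 1000 UMIs in 57.9% and 63.4% of members against 3.15% and 3.53% of other cells. In single members it ran from 0 to 11599.8 CPM in WT and from 0 to 15666 CPM in nod2-/-. Up to 5000 UMIs its level in members was 2970 CPM in WT and 3459 CPM in nod2-/-, against 83.7 and 75.0 CPM in other cells. tcnba (ENSDARG00000068088), which encodes a vitamin B12-binding protein of the transcobalamin family, stood at 11060.4 and 11200.2 CPM in members and at 949 and 1196 CPM in other cells. cfd, the complement serine protease factor D, stood at 2149 and 2457 CPM against 122 and 271 CPM. The level of each was higher in members in both libraries.

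Receptor, transporter and enzyme genes among the 25 genes named by rule had the following values. oprl1 (ENSDARG00000071209), the receptor of the neuropeptide nociceptin, was at 90.9 CPM in WT and 90.7 CPM in nod2-/- members and at 2.99 and 2.19 CPM in other cells, the largest fold of the 25 genes in both libraries (30.4-fold and 41.5-fold). adgrg4b, an adhesion G protein-coupled receptor, was 19.7-fold and 16.9-fold higher. relt, a receptor of the tumor necrosis factor receptor family, was 19.2-fold and 21.8-fold higher. The phosphate transporter gene slc20a1a was 12.4-fold and 16.1-fold higher. wnk4b, a kinase of the WNK family that regulates ion transport in vertebrates, was 10.4-fold and 17.0-fold higher. hyal2b, a hyaluronidase gene, and ece2b, an endothelin-converting enzyme gene, were 15.8-fold and 10.1-fold higher in WT. In nod2-/- these genes were 15.4-fold and 9.44-fold higher. Over all 25 genes the fold ran from 6.24 to 30.4 in WT and from 5.40 to 41.5 in nod2-/-. No member cell held more than 3.31% of a gene's UMIs in WT or 5.41% in nod2-/-, so none of the 25 rested on a single cell.

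**Figure D2:**
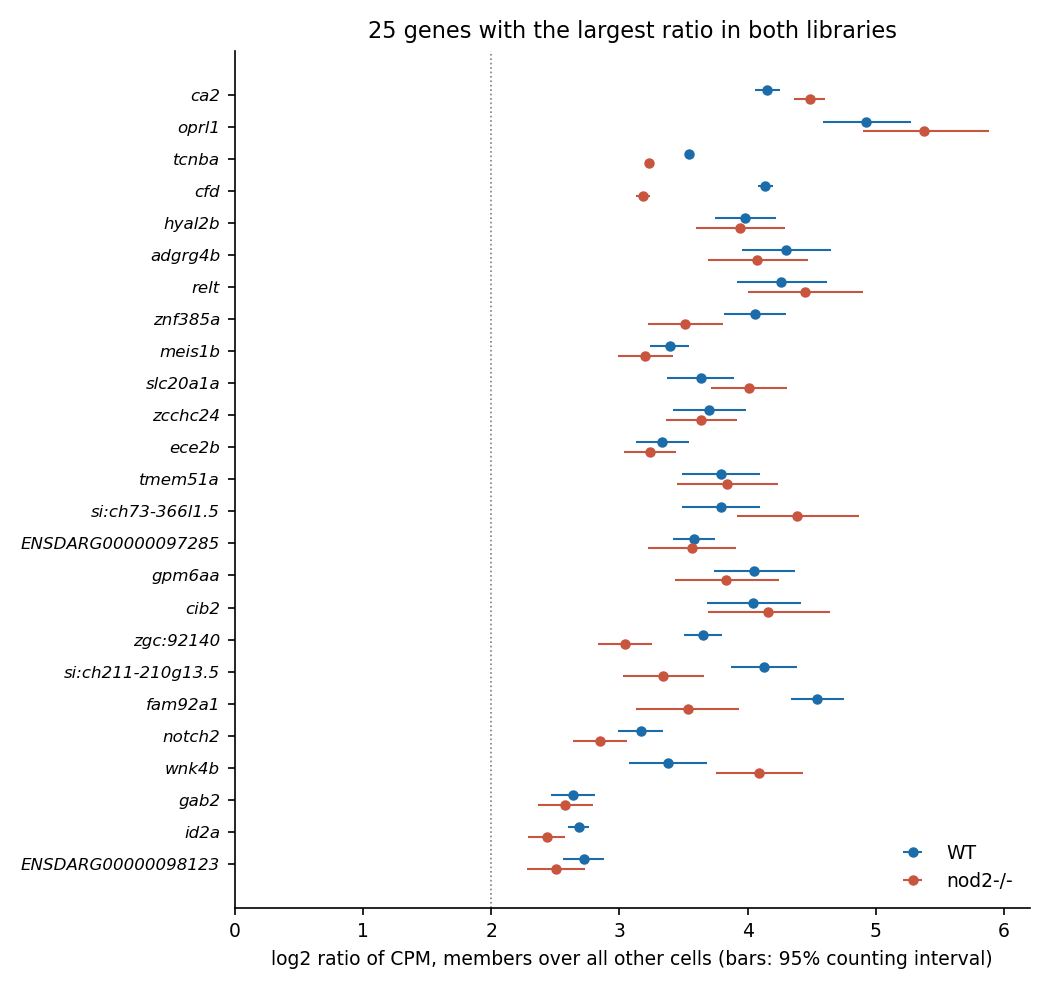
Log2 ratio of the CPM in members to that in all other cells for the 25 genes outside the rule that had at least 50 CPM in members of both libraries and the largest smaller ratio of both after 5 CPM were added; the ratios shown are without this addition. Points are the WT (blue) and nod2-/- (red) library, bars the 95% counting interval, and the dotted line is 4-fold; oprl1 has the largest ratio of the 25 in both libraries, 4.92 and 5.38.

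Regulators of cell identity were fewer. meis1b, a homeobox partner of Pbx and Hox proteins, was at 208 and 172 CPM in members and at 19.8 and 18.7 CPM in other cells. id2a, an inhibitor of basic helix-loop-helix transcription factors, was at 540 and 304 CPM against 84.2 and 56.3 CPM. Of 15 tested transcription factors of gut identity and position, only meis1b was at least 2-fold higher in both libraries, the median log2 ratio being 0.18. The gut factor hnf4a, at 114 and 123 CPM against 83.1 and 75.9 CPM, was below this limit. Across all genes tested 2.79% were at least 2-fold higher and 1.06% at least 2-fold lower in both libraries. Up to 5000 UMIs these shares were 9.43% and 10.8%, and 3 of 20 tested transcription factors were then higher and 2 lower. Testing needed 20 CPM in members or other cells, and meis1b reached this in members alone. Up to 5000 UMIs foxa2, among the higher, did so in members alone and pbx3b, among the lower, in other cells alone. Genes that enter this way differ by construction, so these counts do not test the group.

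Several receptors for secretagogues, the hormones and transmitters that stimulate fluid secretion, and genes of their cyclic nucleotide signalling were higher in members. Of 11 tested genes 7 were at least 2-fold higher in both libraries and 0 lower, with a median log2 ratio of 1.39. The shares over all genes tested were 2.79% and 1.06%. Only 11 of the 32 listed genes in the files reached the 20 CPM needed for testing. Of the 7, ptger4c, tacr3a, adcy6a, chrm3a and vipr1a reached it in members alone. Genes that enter this way are higher by construction, so the count does not test the group. ptger4c, a prostaglandin E2 receptor gene, was at 52.2 and 34.5 CPM in members against 0.93 and 0.89 CPM in other cells. tacr3a, another tachykinin receptor gene, was at 45.0 and 22.2 CPM against 0.73 and 0.60 CPM. The adenylate cyclase gene adcy6a was at 64.3 and 41.6 CPM against 4.66 and 4.62 CPM. The muscarinic receptor gene chrm3a, the vasoactive intestinal peptide receptor gene vipr1a, the phosphodiesterase gene pde3a and gucy2c, the receptor of guanylin, completed the 7. gucy2c was at 90.4 and 69.5 CPM in members and at 38.0 and 28.4 CPM in other cells. htr4, prkar2aa, pde5ab and vipr1b did not reach 2-fold in both libraries. Up to 5000 UMIs 9 of 13 were higher and 1 lower, with a median log2 ratio of 2.35. Of further receptors looked up after other values had been seen, some leaned the same way and others did not. sctr, the secretin receptor gene, was at 17.3 and 11.3 CPM against 0.57 and 0.45 CPM. It was a listed gene that missed the 20 CPM needed for testing. sstr5, a somatostatin receptor gene, was at 78.4 and 73.2 CPM against 12.5 and 14.1 CPM. galr1a, a galanin receptor gene, had no UMI in members and was at 0.565 and 0.696 CPM in other cells. tnfrsf11a, of the tumor necrosis factor receptor family, differed by less than 2-fold in both libraries.

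Ion transport genes other than those of the rule went both ways. Of 11 tested channels and transporters 0 were at least 2-fold higher or lower in both libraries, with a median log2 ratio of 0.05. Over all genes tested 2.79% were higher and 1.06% lower, so a count of 0 lies near these shares. In cells with up to 5000 UMIs 2 of 13 were higher and 2 lower, with a median of -0.57, beside 9.43% and 10.8% of all genes. The sodium pump subunits atp1a1a.1 and atp1b1a, at 520 and 1296 CPM in WT members, were at 504 and 1222 CPM in other WT cells. slc4a4a, a sodium bicarbonate cotransporter gene, was at 408 and 336 CPM against 280 and 291 CPM, and in members with up to 5000 UMIs at 88.5 and 122 CPM against 204 and 230 CPM. aqp8a.2, an aquaporin gene, was at 162 and 214 CPM against 128 and 129 CPM, and up to 5000 UMIs at 367 and 408 CPM against 93.5 and 95.8 CPM. Of 8 tested subunits of the proton-pumping V-ATPase 0 reached 2-fold in either direction, the median log2 ratio being -0.08. kcnma1a, a calcium-activated potassium channel gene, had 6 and 4 UMIs in members. best1 and best2, the other bestrophin genes looked up, had no UMI in members. Among carbonic anhydrases outside the rule, ca2 and ca9 were tested, and ca9 was at 23.4 and 23.6 CPM against 14.6 and 9.59 CPM, and up to 5000 UMIs at 63.2 and 58.7 CPM against 16.9 and 12.1 CPM.

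Notch pathway genes moved unevenly. Of 11 tested, notch2, the ligand gene dll4 and her6, a Notch target of the Hes family, were at least 2-fold higher in both libraries and 0 were lower, with a median log2 ratio of 0.64 beside 0.08 over all genes. Over all genes tested 2.79% were this much higher and 1.06% lower. The 20 CPM needed for testing were reached by dll4, and in WT by notch2, in members alone. notch2 was at 146 and 154 CPM against 16.3 and 21.4 CPM. dll4 was at 46.2 and 43.9 CPM against 7.85 and 12.5 CPM, and her6 at 484 and 385 CPM against 137 and 116 CPM. notch3, numb, mib1, lfng, her9, her15.1, rbpjb and neurl1aa stayed below this limit. Among cells with up to 5000 UMIs 5 of 13 were higher, her9 and rbpjb included, and notch3 was lower, with log2 ratios of -2.52 and -1.62. The metal-binding metallothionein mt2 was at 2424 and 4342 CPM in members and at 522 and 1017 CPM in other cells. The protein of anxa4 marks secretory cells in zebrafish gut and, per the paper, BEST4 cells too. anxa4 was at 1568 and 1629 CPM against 671 and 560 CPM. agr2, a goblet cell gene, was lower in members, at 257 and 132 CPM against 558 and 318 CPM.

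Several of these genes were shared with other epithelial cells. Cells with up to 5000 UMIs were gated by at least 3 markers of goblet, tuft or enteroendocrine cells, or by the progenitor gene her15.1. The her15.1 cells, 66 in WT and 115 in nod2-/-, had her6 at 2149 and 1998 CPM, above the 1298 and 1102 CPM of members of the same depth. They also had meis1b at 353 and 179 CPM, ca2 at 294 and 204 CPM and cfd at 1444 and 1082 CPM. Each was above all other cells, whose meis1b, ca2 and cfd were at 56.8, 83.7 and 266 CPM in WT and 45.2, 75.0 and 427 CPM in nod2-/-. Enteroendocrine cells, 83 and 123, had chrm3a at 211 and 113 CPM and ece2b at 231 and 314 CPM, where members had 201 and 152 CPM and 411 and 640 CPM. anxa4 was at 14621 and 13138 CPM in the 4 and 12 tuft cells, against 4686 and 5209 CPM in members. oprl1, hyal2b, id2a and tcnba were highest in members among all these gates in both libraries. Enterocytes were not gated. The cells without otop2 but with 2 or more further genes were not a gate either. At all depths those cells had oprl1 at 43.3 and 13.1 CPM, below members. Their meis1b, at 326 and 179 CPM, and notch2, at 223 and 157 CPM, were above members.

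Markers of other cell types were low or mixed in members. Of 4 tested enteroendocrine markers 3 were at least 2-fold lower in both libraries, with a median log2 ratio of -1.98, and of 3 tested leukocyte markers 2 were lower, with a median of -1.30. The share over all genes tested was 1.06%. No more than 2 enteroendocrine markers reached 20 CPM in members of either library. The others were tested through other cells alone and are lower by construction, so this count does not test the group. Summed leukocyte markers were at 166 and 119 CPM in members and 434 and 480 CPM in other cells, ptprc being 0 by the rule. All ptprc cells stayed among the other cells, so lower leukocyte markers in members were built into the choice of cells. Pan-epithelial genes summed to 2599 and 2492 CPM in members against 2301 and 1884 CPM. Cell cycle markers summed to 226 and 195 CPM against 156 and 171 CPM. The 5 genes lowest in members by rule were BX855618.1, the enteroendocrine hormone gene insl5a, the keratin krt94, runx3 and CABZ01080550.1. insl5a was at 27.1 and 7.56 CPM in members and at 315 and 559 CPM in other cells, and runx3, a leukocyte transcription factor gene, was at 9.79 and 6.14 CPM against 52.4 and 62.2 CPM. The ptprc condition of the rule also favours a lower level of runx3 in members.

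The level of tcnba split the members. Among those with up to 5000 UMIs, 93 of 265 in WT and 94 of 217 in nod2-/- had at least 10000 CPM of tcnba in the single cell, and 128 and 99 had less than 1000 CPM, of which 112 and 87 had no tcnba UMI at all. Between these limits lay 44 WT and 24 nod2-/- members. These limits were set after the data were seen. Summed over cells, tcnba was at 75612 CPM in the tcnba-high cells and 66.5 CPM in the tcnba-low cells of WT, and at 71245 and 85.7 CPM in nod2-/-. Median depth was 2956 UMIs in tcnba-high and 2352 in tcnba-low cells of WT and 1950 and 1642 in nod2-/-. Members between the limits were shallower, at 1227.5 and 825 UMIs, and in a cell of fewer than 1000 UMIs a single tcnba UMI passes 1000 CPM. High tcnba was not confined to members, since the highest other cells up to 5000 UMIs reached 127184 CPM in WT and 131115 CPM in nod2-/-. The tcnba-high share was 35.1% (29.4 to 41.2) in WT and 43.3% (36.6 to 50.2) in nod2-/-, intervals that overlap.

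**Figure D3:**
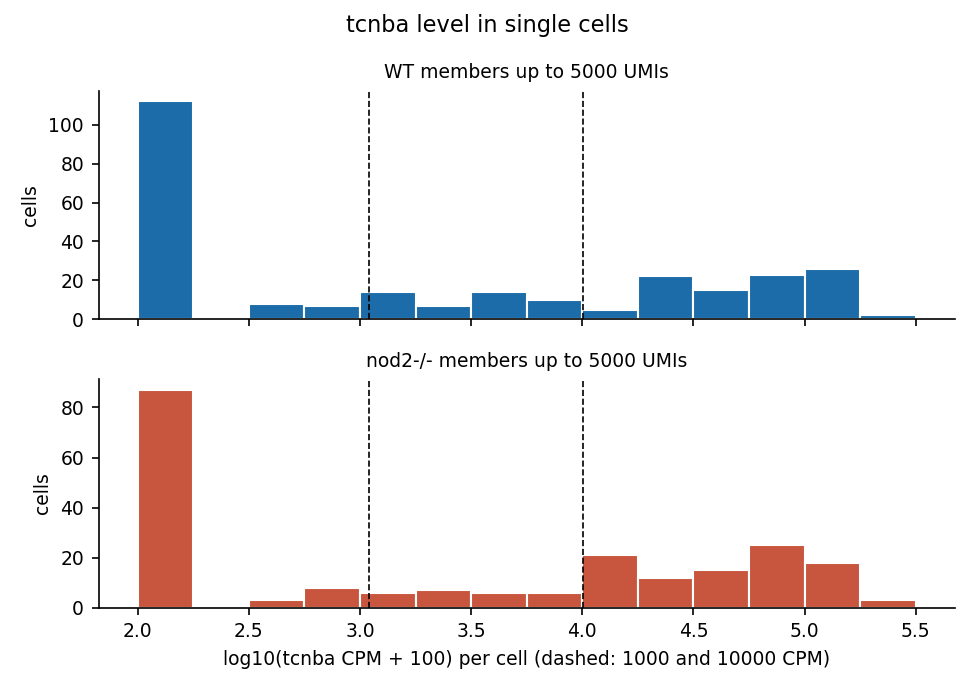
Number of members with up to 5000 UMIs by their own tcnba level, as log10 of CPM + 100, in the WT (upper) and nod2-/- (lower) library. Dashed lines mark 1000 and 10000 CPM; 112 WT and 87 nod2-/- cells have no tcnba UMI, 93 and 94 lie at or above the upper line.

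By the rule every cell of both kinds had otop2 and a further gene of the rule, so the values of these genes only describe the cells. otop2 was at 2994 CPM in tcnba-high and 2651 CPM in tcnba-low WT cells and at 2734 and 1971 CPM in nod2-/-. ca2 was at 3088 and 2987 CPM in WT and at 3471 and 3468 CPM in nod2-/-, with log2 ratios of 0.0481 (-0.0904 to 0.19) and 0.0014 (-0.16 to 0.16). notch2 had log2 ratios of -0.11 (-0.46 to 0.24) and -0.10 (-0.53 to 0.33). ca4b, in contrast, was higher in tcnba-high cells, at 5423 against 2980 CPM in WT and 4366 against 1560 CPM in nod2-/-. cftr was higher in tcnba-low cells, at 2092 against 1369 CPM and at 3445 against 1899 CPM. best4 followed cftr, at 252 against 162 CPM and at 314 against 193 CPM. Of the other genes of the rule, tacr2 had log2 ratios of -0.47 (-1.22 to 0.26) in WT and 1.21 (-0.22 to 2.85) in nod2-/-. For pbx3a they were -0.05 (-0.39 to 0.28) and -0.26 (-0.62 to 0.10). Since any further gene admits a cell, the opposite leanings of ca4b and cftr describe the choice of cells and are not a test.

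Genes that went with the split were picked in WT and then looked up in the nod2-/- library, which had no part in picking them. Of the 20 genes most raised in tcnba-high WT cells, 18 had the same sign in nod2-/- and 15 were at least 2-fold higher there, while 4.36% of all 1400 genes considered were. Of the 20 most lowered, 18 had the same sign and 16 were at least 2-fold lower, against 6.5% of genes. gal3st3 and jdp2b among the raised and gcga and agr2 among the lowered genes had the opposite sign in nod2-/-. The WT tcnba-low UMIs of gcga and agr2 came from 4 and 11 cells, and those of galn, which kept its sign with 1 UMI in nod2-/-, from 1 cell.

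Some receptor genes were higher in tcnba-high cells and others in tcnba-low cells. cxcr4b, a chemokine receptor gene, was at 342 CPM against 3.50 CPM in WT and 292 against 22.9 CPM in nod2-/-. hrh2b, a histamine H2 receptor gene, was found in 35 of 93 tcnba-high WT cells and 25 of 94 in nod2-/-, at 231 and 183 CPM. In tcnba-low cells it had 2 UMIs in WT and none in nod2-/-. oprl1 was at 418 against 83.9 CPM and at 435 against 57.1 CPM, and tacr3a, with 51 against 18 UMIs in WT, had 26 against none in nod2-/-. colec12, a scavenger receptor gene, was at 292 against 66.5 CPM in WT and at 208 CPM against none in nod2-/-. In other cells up to 5000 UMIs oprl1, tacr3a and colec12 were at 6.27, 1.25 and 4.86 CPM in WT, and hrh2b was at 1.02 CPM in nod2-/-. tcnbb, another transcobalamin gene, had 24 and 14 UMIs in tcnba-high cells and none in tcnba-low cells. fabp2 and rbp2a, carriers of fatty acid and retinol in absorptive cells, were higher in tcnba-high cells too, fabp2 at 3452 against 1319 CPM in WT and 4193 against 1017 CPM in nod2-/-, but other cells had 4416 and 4121 CPM.

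Other genes were higher in tcnba-low cells, the opioid receptor gene oprm1 among them, with 32 against 1 UMIs in WT and 8 against none in nod2-/-. vipr1a had 40 against 20 and 23 against 9 UMIs. adgrg6, an adhesion G protein-coupled receptor gene, was found in 20 tcnba-low WT and 29 tcnba-low nod2-/- cells, at 101 and 229 CPM, and had no UMI in tcnba-high cells of either library. In other cells it was at 11.8 and 5.52 CPM. gpm6aa, a membrane glycoprotein gene, was at 476 against 64.9 CPM in WT and 428 against 49.4 CPM in nod2-/-. rgs5a, a regulator of G protein signalling, was at 1609 against 259 CPM and 2365 against 282 CPM. ca9, a membrane carbonic anhydrase, was at 122 against 10.8 CPM and 120 against 9.89 CPM, and was at 16.9 and 12.1 CPM in other cells. slc12a2, the cotransporter that loads secretory cells with chloride, was at 38.5 against 10.8 CPM in WT, with an interval of the log2 ratio that holds 0 (-4.31 to 0.09), and at 149 against 14.8 CPM in nod2-/- (-5.69 to -1.62).

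Of the genes known for position along the body and gut, cdx4 and the hox genes went with tcnba-low, whereas cdx1b did not. The caudal homeobox gene cdx4 was at 126 against 21.6 CPM in WT and 114 against 24.7 CPM in nod2-/-. The 26 hox genes of paralog groups 8 to 13 summed to 32 UMIs in tcnba-low and 3 UMIs in tcnba-high WT cells, and to 22 and 1 in nod2-/-. For groups 3 to 7 these sums were 45 and 10 UMIs in WT and 42 and 5 in nod2-/-. cdx1b, found along the whole zebrafish gut, was at 308 against 339 CPM and 183 against 267 CPM. fabp6, the ileal bile acid-binding protein gene, was at 2294 against 335 CPM and 2525 against 312 CPM. Other cells of the same depth had more fabp6, 3043 and 6313 CPM. The lysosome-rich markers, fabp6 included, summed to 2924 CPM in tcnba-low and 548 CPM in tcnba-high WT cells and to 2965 and 480 CPM in nod2-/-. Most of each tcnba-low sum was fabp6. Of the other markers amn leaned to tcnba-high cells in both libraries, ctsba was nearly even and the rest leaned to tcnba-low cells. The part of these markers in the difference was not tested. Intestines were dissociated whole, so no label gives the place a cell came from.

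**Figure D4:**
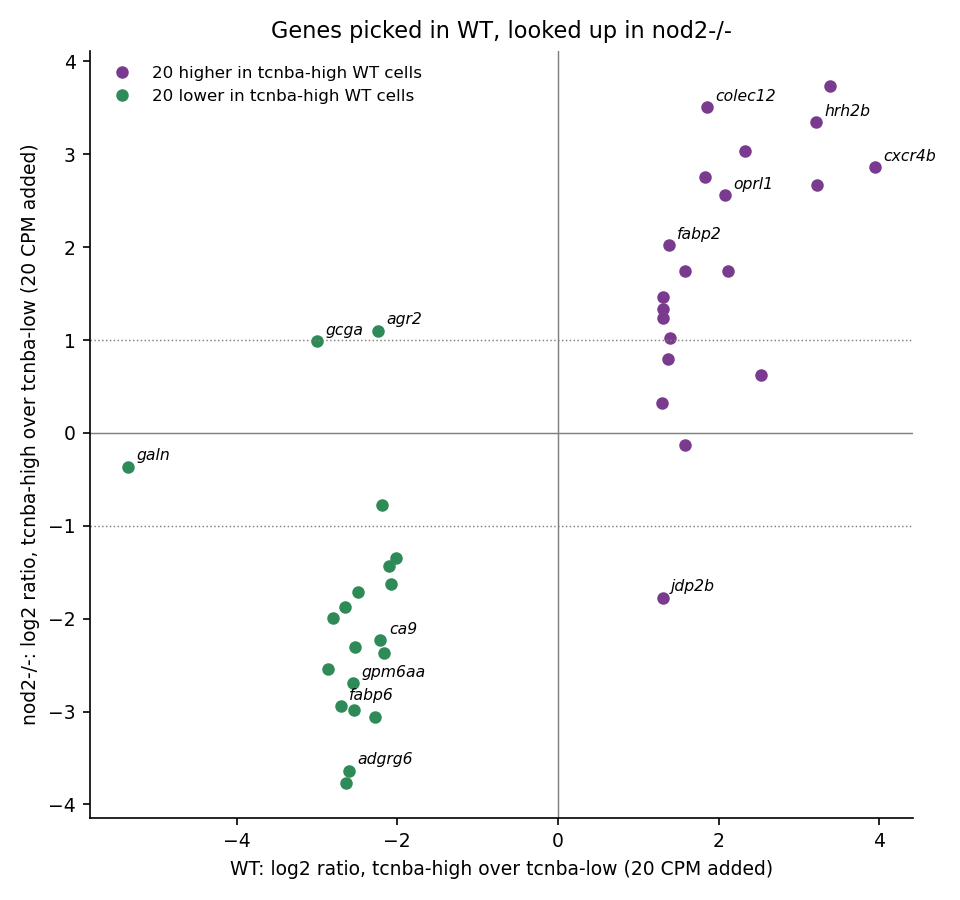
Log2 ratio between tcnba-high and tcnba-low members (20 CPM added to both), in WT on the x axis and in nod2-/- on the y axis, for the 20 genes most raised (purple) and 20 most lowered (green) in WT; dotted lines mark 2-fold. In nod2-/- 15 of the purple points lie above the upper dotted line and 16 of the green points below the lower.

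The remaining question was whether members differed between genotypes. Members made up 7.89% of the WT library (95% interval 7.22 to 8.61) and 6.05% of the nod2-/- library (5.44 to 6.71), a log2 ratio of -0.38 (-0.59 to -0.18). Thinned to 1000 UMIs, with 1016 WT and 1505 nod2-/- cells too shallow to use, the shares were 5.50% and 4.03%. Among cells with up to 5000 UMIs they were 7.47% and 5.22%. Under the filter on depth and mitochondrial RNA that the methods name, the shares were 6.17% and 5.99%, a log2 ratio of -0.0435 (-0.37 to 0.29). With 1 library per genotype, a difference between genotypes and one between the libraries cannot be told apart.

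Most of the 25 genes named above differed by less than 2-fold between genotypes, though often by more than counting error. Of the 25, 2 were at least 2-fold lower in nod2-/- members and 0 at least 2-fold higher, beside 2.78% and 1.36% of all 4710 genes tested. The 25 were picked for a high ratio and at least 50 CPM in members of both libraries, which by itself disfavours large differences between genotypes. The 4710 genes needed 20 CPM in only 1 library, so these shares are not a like comparison. The interval lay below 0 for 8, above 0 for 6 and held 0 for 11, and the median log2 ratio was -0.0031 in members and 0.0458 in other cells. oprl1 had a log2 ratio of -0.0031 (-0.26 to 0.25), notch2 of 0.0732 (-0.13 to 0.27) and tcnba of 0.0181 (-0.0047 to 0.0409). Among the genes of the rule, otop2 had -0.08 (-0.17 to 0.00), ca4b -0.33 (-0.41 to -0.25) and cftr 0.73 (0.63 to 0.82). In other cells cftr had 0.39 (0.25 to 0.54). For cftr and ca4b the ratios up to 5000 UMIs were 0.64 and -0.42. These genes decide which cells are members, so their ratios are a description.

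fam92a1 (ENSDARG00000004436), which encodes a membrane-curving protein of the cilium base, was the gene of the 25 that differed most. It was at 195 CPM in WT and 55.8 CPM in nod2-/- members, and 57.6% and 24.5% of members carried it. Its log2 ratio was -1.81 (-2.10 to -1.53) in members, -2.19 up to 5000 UMIs, and -0.80 (-1.15 to -0.45) in other cells. The other gene past 2-fold has no symbol in the files and fell alike in other cells. id2a had -0.83 (-0.96 to -0.70) in members and -0.58 (-0.68 to -0.48) in other cells. In the other direction stood wnk4b, with 0.85 (0.57 to 1.13) in members and 0.14 (-0.22 to 0.50) in other cells. In all, the interval in members lay below that of other cells for 7 of the 25 genes and above it for 2, wnk4b and ca2.

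Across all genes, 64 of 4710 tested (1.36%) were at least 2-fold higher and 131 (2.78%) at least 2-fold lower in nod2-/- members. With TMM factors, which raise every log2 ratio by 0.147, these counts were 91 and 89, and ratios between -0.147 and 0, such as those of otop2 and of the NOD2 pathway median, change sign. Up to 5000 UMIs, 213 of 5535 (3.85%) were higher and 345 (6.23%) lower, and 34 of the 64 and 50 of the 131 were shared with them. The median log2 ratio was -0.11 in members and -0.05 in other cells. The genes at both ends changed in other cells too. All 10 most raised genes were also at least 2-fold higher in other nod2-/- cells, and 9 of the 10 most lowered were also at least 2-fold lower there.

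fkbp5, a glucocorticoid-responsive chaperone gene, was at 29.1 CPM in WT and 247 CPM in nod2-/- members, a log2 ratio of 3.08 (2.79 to 3.39), and rose from 27.8 to 257 CPM in other cells. cyp7a1, the rate-limiting enzyme of bile acid synthesis, had 2 and 130 UMIs in members, and vtg1, an egg yolk precursor made in the liver under estrogen, had 6 and 120. Their levels in other cells were 0.23 and 64.4 CPM for cyp7a1 and 2.06 and 252 CPM for vtg1. The glucose-6-phosphatase gene g6pca.2, ulk2 and insig1 rose from 42.4 to 172, 58.5 to 188 and 22.9 to 76.5 CPM. esr2b, an estrogen receptor gene, was at 80.9 and 235 CPM in members, a log2 ratio of 1.54 (1.33 to 1.74) beside 1.34 in other cells. Only 14 of its 322 WT and 31 of its 497 nod2-/- member UMIs came from members with up to 5000 UMIs. There esr2b was at 22.1 and 75.8 CPM in members, below the 85.3 and 264 CPM of other cells. For these genes members and other cells thus differed between genotypes in the same direction.

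Among the most lowered were the digestive enzyme genes prss59.1, cela1.6 and ctrb1 of pancreatic acinar cells. prss59.1 was at 133 and 2.84 CPM in members and at 401 and 13.8 CPM in other cells. The 11 acinar markers summed to 535 and 26.9 CPM in members and to 1964 and 99.4 CPM in other cells. Up to 5000 UMIs they summed to 1925 and 73.3 CPM in members and to 2164 and 225 CPM in other cells. The level in members thus lay below that of other cells in each library, but in WT only slightly so up to 5000 UMIs. krt15 had 749 UMIs in WT members, but 99.3% of them came from 1 cell. Likewise 93.8% of the nod2-/- UMIs of si:ch211-173a9.6, named among the most raised, came from 1 cell.

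**Figure D5:**
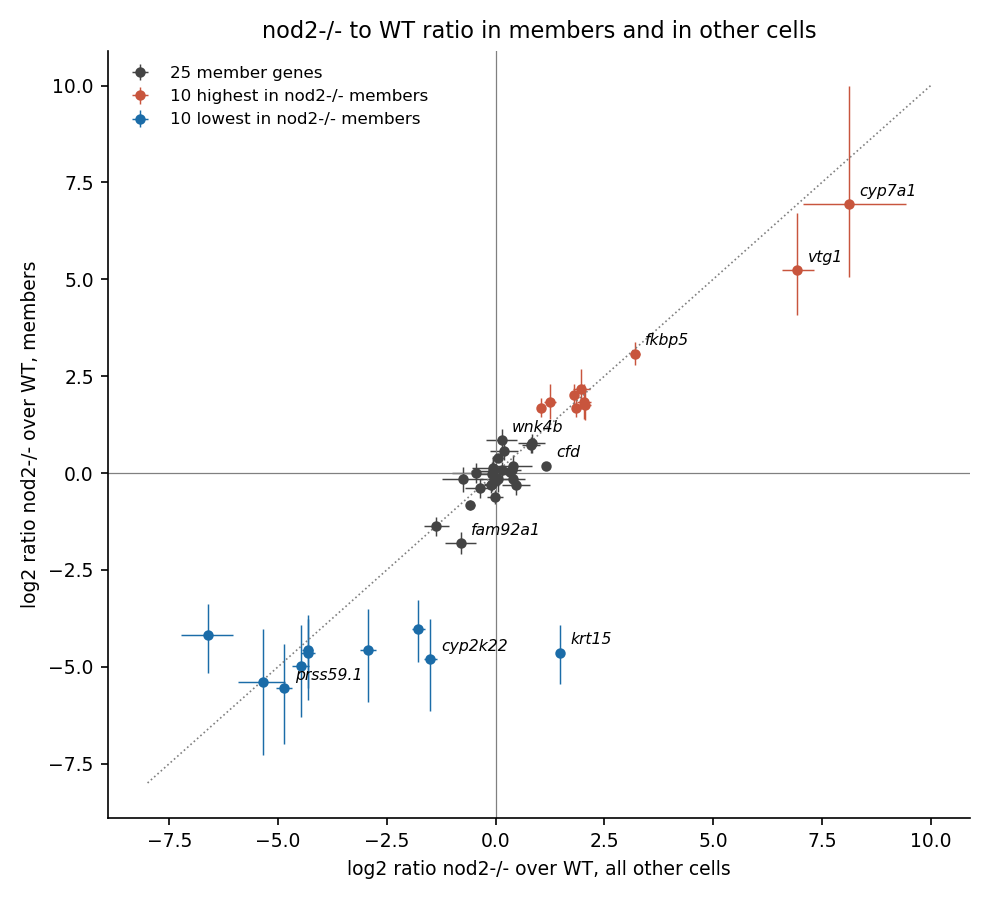
Log2 ratio of nod2-/- to WT in members (y axis) against that in all other cells (x axis), with 95% counting intervals, for the 25 member genes (grey), the 10 most raised (red) and the 10 most lowered (blue) genes in nod2-/- members. The dotted line marks equal ratios; fkbp5, at 3.08 in members, lies close to it, whereas krt15 (-4.64 and 1.48) lies far from it.

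Some gene lists had like medians in members and other cells and others did not. Over all genes tested, 1.36% were at least 2-fold higher and 2.78% at least 2-fold lower in nod2-/- members. Up to 5000 UMIs these shares were 3.85% and 6.23%. Counts of 0 in lists of 10 to 12 genes lie near the shares over all genes and say little about the lists. None of 10 tested genes of the NOD2 pathway reached 2-fold between genotypes, the median log2 ratio being -0.08 in members and -0.09 in other cells. Of 11 tested secretagogue genes 0 reached 2-fold, with medians of -0.35 in members and -0.0345 in other cells. Of 12 Notch genes 0 did, with medians of -0.33 and -0.13, but up to 5000 UMIs the median in members was 0.23 and 3 of 13 were at least 2-fold higher, so these data give the Notch list no direction. Of 9 enterocyte markers 3 were at least 2-fold higher, with medians of 0.77 in members and 0.21 in other cells. Immediate early and heat shock genes, which respond to dissociation, had a median of -0.73 over 16 genes in members, 3 of them at least 2-fold lower, and of -0.25 in other cells. The 13 mitochondrial genes had a median of -0.56 in members and -0.51 in other cells. The lysosome-rich enterocyte markers had a median of -0.96 in members and 0.65 in other cells, and up to 5000 UMIs -0.21 in members. Handling-related genes and markers of another cell type thus differed between the member sets as well, and their part in the other differences was not tested.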

How the data were processed

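Single-cell libraries were made from dissociated intestines with a droplet 3' kit. Per the labels and methods, the authors aligned reads to GRCz11 with Cell Ranger 7.0.1, and the deposited values are UMI counts per gene and cell with no normalization. All 11490 cells and 25432 genes were used. UMIs were summed over the cells of each class and library and divided by their total. Ratios for counts and lists carry 5 CPM added to both sides, and genes needed 20 CPM in members or other cells of each library (for genotypes, in 1 library). Single genes carry plain ratios with exact conditional intervals, shares Clopper-Pearson intervals, at 95%. Named were the 25 genes with the largest smaller log2 ratio of both libraries and the 5 lowest, at 50 CPM or more, 10 genes each way between genotypes, and up to 4 genes of each list, and further genes after their values were seen. Some genes picked by these rules are not reported here. Members, lists and rules were chosen with earlier results of these data known. Python 3.11.15, numpy 2.4.6, scipy 1.17.1, pandas 2.3.3, scanpy 1.11.5 (Scrublet), matplotlib 3.10.9 and edgeR 4.0.16 (TMM factors) were used. On simulated counts with 200 changed genes, intervals held the true fold for 96.5% of them between genotypes (9367 genes) and 97.0% between members and other cells (15564 genes). These counts were drawn with counting error alone, as the intervals assume, so they do not check for variation between cells or fish. Alternatives changed the rule, offset, minimum, scaling, depth and cells used.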

Additional observations from a re-analysis of the deposited data

Results flagged for a closer look

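Only the genes named by rule, those from the lists included, were searched for ratios that differed in direction. For 14 of them the nod2-/- to WT ratio had opposite signs in members and in other cells, with both counting intervals excluding 0. The remaining genes were not searched, so this is no count over all genes. These differences were not tested, since each genotype had 1 library. The log2 ratio in members was -4.64 for krt15, with 99.3% of its WT UMIs in 1 cell, -2.02 for the peptide hormone gene pyyb, -1.84 for insl5a and -0.45 for her15.1. Among lysosome-rich enterocyte markers it was -1.67 for lrp2b, -1.27 for fabp6, -0.62 for slc10a2 and -0.50 for lgmn, while other cells had 0.60, 0.18, 0.55 and 1.19. It was -0.45 for hsp70.2, -0.44 for atp6v1e1b, -0.31 for si:ch211-210g13.5, -0.28 for slc4a4a, 0.0887 for atp1b1a and 0.49 for fabp2. Up to 5000 UMIs fabp6 had -0.0882 (-0.25 to 0.0706) in members, pyyb 0.0449, her15.1 1.38 and slc4a4a 0.47.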

How the results depend on the processing

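No paired analysis was possible because each genotype had 1 library. The lower share of members in nod2-/- kept its sign in every alternative run. The log2 ratio was -0.0435 under the filter of the methods and within -0.52 to -0.33 in all others. The shares moved with the rule and the cells used: 5.50% and 4.03% thinned to 1000 UMIs, 3.62% and 2.73% thinned to 500, 6.59% and 4.68% with at least 2 otop2 UMIs, 6.87% in WT with at least 2 further genes, 2.39% and 1.68% with both otop2 and best4, 6.17% in WT under the filter of the methods, 7.18% and 5.43% without cells above the 95th UMI percentile, 8.85% and 6.74% of cells without ptprc, and 5.22% in nod2-/- without cells over 5000 UMIs. The 42 genes at least 4-fold higher in members became 185 under the filter of the methods, 81 without cells above the 95th UMI percentile, 161 without cells over 5000 UMIs and 120 as a mean over cells, and all 42 were among each of these. Against cells with epcam there were 51, of which 29 were shared. The 64 higher and 131 lower genes between genotypes became 99 and 238 without a minimum, 546 and 787 under the filter of the methods, 213 and 345 without cells over 5000 UMIs, and 130 higher as a mean over cells. Of 300 values of named genes between members and other cells 187 moved out of their counting interval and 0 changed sign, and of 200 between genotypes 90 moved and 5 changed sign: krt15 to 1.72, 1.55 and 1.44 under the filter of the methods and without the deepest cells by either limit, si:ch211-173a9.6 to -0.51 without cells above the 95th UMI percentile, and cyp7a1 to 0 under the filter of the methods. The cause of these shifts was not tested. Depth limits genes with few UMIs, best4 and tacr2 among them, and the 5000 UMI limit and the tcnba classes were chosen after the data were seen.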
